A study of Mus musculus with 8 samples.

Results

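The myogenic regulatory factors and their partners of the MEF2 family were examined as 8 genes, Pax7, Myf5, Myod1, Myog, Myf6, Mef2a, Mef2c and Mef2d. They were chosen by gene symbol in the table of counts, by a rule that uses no values but was set with earlier results of these data known, and all 8 were among its 12551 genes. The table holds bulk RNA sequencing of the tibialis anterior (TA), a fast-twitch muscle of the lower leg, from 7-week-old male mice. The groups were 4 wild-type (WT) mice and 4 mice homozygous for a null allele of Klotho (KL-/-), a transmembrane and circulating protein whose loss shortens life. Both genotypes came from crosses of heterozygotes on a mixed background, and Klotho was missing from the whole body, so an effect of muscle cannot be separated from an effect of other organs. Kl itself was not analysed here, so genotypes rest on the labels. The comparison asked whether transcripts of the factors that build and maintain muscle differed between the genotypes.

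Skeletal muscle identity is set by 4 basic helix-loop-helix (bHLH) factors, MyoD, Myf5, myogenin and MRF4 (encoded by Myod1, Myf5, Myog and Myf6), which pair with E proteins and bind the E-box, a short DNA motif. Pax7 marks satellite cells, the stem cells of muscle, and acts before these factors. MEF2 proteins are MADS-box factors that bind AT-rich DNA and act together with the bHLH factors on muscle genes, under the control of class IIa histone deacetylases, calcineurin and p38 kinase.

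None of the 8 genes passed the test for a genotype difference, edgeR's quasi-likelihood test with Benjamini-Hochberg adjustment over all genes at a false discovery rate (FDR) under 0.05. Among all genes tested 14.0% passed, 7.35% higher in KL-/- and 6.67% lower. None had an unadjusted p under 0.05, and the WT and KL-/- ranges overlapped for all 8. Over all genes the ranges did not overlap for 19.7% (10.2% with KL-/- above WT and 9.47% below). With only 8 genes, a count of none is not far from these shares and does not set the genes apart. The median size of the log2 fold change was 0.11 for the 8 genes and 0.18 for all genes. The fold changes were positive for 5 genes and negative for 3. The precision differed widely between them, from a 95% interval of 0.657-fold to 2.33-fold for Myog to one of 0.873-fold to 1.11-fold for Mef2a.

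Library totals were 20860262 to 26501093 counts in WT and 22061526 to 29273758 in KL-/-. No pair of libraries of the same genotype agreed within sampling noise. KL-/- replicate 2 stood apart from the other KL-/- libraries over all genes, with a chi-square per gene of 60.6 to 84.9 against them, above every value among the others, and 2755 genes were called without it in place of 1759. KL-/- replicate 3 carried another batch date than the other 7 libraries, so for that library date and mouse cannot be told apart. In whole muscle, fewer cells of a type and less RNA per cell cannot be told apart.

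The promoter letters of Myog are shown because its gene lies downstream of both families in differentiation, and those of Myf5 and Mef2c to set a second bHLH factor and a MEF2 gene beside it. The RefSeq promoter table held 8 promoters for 6 of the 8 genes, on GRCm38.p6. Each line gives the 250 bases before the start, 5′ to 3′ on the strand of the gene. Capitals mark E-boxes (CANNTG) and a loose MEF2-type pattern, CTANNNNTA, both searched on both strands. The middle bases of the loose pattern are free and need not be A or T. Neighbouring capitals in Myf5 are overlapping matches on the 2 strands.
Myog, chr1:134289754-134290003, plus strand: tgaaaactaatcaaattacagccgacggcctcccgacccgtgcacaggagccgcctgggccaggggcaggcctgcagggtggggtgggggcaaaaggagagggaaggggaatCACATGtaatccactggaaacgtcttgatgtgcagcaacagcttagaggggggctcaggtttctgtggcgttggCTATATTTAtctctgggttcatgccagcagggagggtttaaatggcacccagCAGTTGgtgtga
Myf5, chr10:107486135-107486384, minus strand: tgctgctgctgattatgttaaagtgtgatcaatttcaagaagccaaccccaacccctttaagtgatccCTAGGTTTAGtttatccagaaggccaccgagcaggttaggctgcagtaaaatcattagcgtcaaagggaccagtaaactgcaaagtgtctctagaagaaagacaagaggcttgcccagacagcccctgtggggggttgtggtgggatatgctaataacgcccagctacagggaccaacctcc
Mef2c, chr13:83503784-83504033, plus strand: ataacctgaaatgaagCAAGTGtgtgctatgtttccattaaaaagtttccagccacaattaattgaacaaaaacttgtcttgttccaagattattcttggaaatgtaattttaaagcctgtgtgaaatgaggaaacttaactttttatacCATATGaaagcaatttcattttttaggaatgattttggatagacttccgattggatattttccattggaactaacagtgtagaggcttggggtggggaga

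Myog held E-boxes at 138 and at 12 bases before its start, with CTATATTTA at 64 bases between them. Myf5 held no E-box in this window. It held the loose MEF2-type pattern at 182 bases before its start, as CTAGGTTTA, with G bases in the middle. The Mef2c window shown, at the start of the counted gene, held 2 E-boxes and no MEF2-type pattern. Mef2c has other starts in the table. The window at chr13:83573357-83573606 held an E-box and the loose pattern, as CTAACGATA, with C and G in the middle, while that at chr13:83523406-83523655 held neither. E-boxes of this loose form occurred in 66.2% of the 32851 promoters and the MEF2-type pattern in 19.0%, so a match is a description of letters only. The pattern was settled after the Myog window had been read. A stricter MEF2 consensus was searched first and was found in 2.92% of promoters and in none of these 8. The exact letters of the Myog match occurred in 0.186% of promoters, a share that is low because those letters were taken from Myog.

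Pax7 (chr4:139738081-139832968, minus strand) is the transcription factor that marks satellite cells. Its normalized level was 5.39, 5.46, 4.46 and 3.23 CPM (counts scaled to the size of the library) in the WT libraries, replicates 1 to 4, and 5.34, 6.97, 5.01 and 4.98 CPM in the KL-/- libraries. The highest library was KL-/- replicate 2 and the lowest WT replicate 4, with the others between 4.46 and 5.46 CPM. The means were 4.63 ± 1.04 CPM in WT and 5.57 ± 0.942 CPM in KL-/- (SD, n = 4 each). This is a log2 fold change of 0.27 with an SE of 0.19 (adjusted p = 0.343). The 95% interval of the fold ran from 0.903 to 1.61.

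Myf5 (chr10:107482908-107486134, minus strand), an early determination factor that is also present in satellite cells, was measured at 2.74, 3.05, 2.40 and 1.08 CPM in WT and at 2.41, 4.06, 1.74 and 1.81 CPM in KL-/-. The same libraries as for Pax7 held the extremes, KL-/- replicate 2 on top and WT replicate 4 at the bottom, 3.77-fold apart. The raw counts behind these values were 30 to 85 per library. Between genotypes the log2 fold change was 0.11 with an SE of 0.35 (adjusted p = 0.855).

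Myod1 (chr7:46376474-46379092, plus strand) encodes MyoD, the determination factor that can turn other cells into muscle. Its level was 26.8, 20.3, 19.1 and 33.7 CPM in WT and 29.8, 16.3, 24.1 and 15.1 CPM in KL-/-. The genotypes overlapped between 19.1 and 29.8 CPM, and WT replicate 4, lowest for Pax7 and Myf5, was highest here. Means were 25.0 ± 6.71 and 21.3 ± 6.93 CPM. The log2 fold change was -0.23 with an SE of 0.24 (adjusted p = 0.553), and the 95% interval of the fold was 0.586 to 1.25.

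Myog (chr1:134290004-134292548, plus strand) encodes myogenin, which drives terminal differentiation and rises in muscle that has lost its nerve. It was measured at 3.84, 7.12, 7.09 and 2.58 CPM in WT and at 5.06, 11.8, 4.77 and 4.03 CPM in KL-/-. A single library, KL-/- replicate 2, lay above all others, and the remaining KL-/- libraries lay inside the WT range. Its coefficient of variation, 44.7% in WT and 56.6% in KL-/-, was the largest of the 8 in both genotypes. The log2 fold change was 0.31 with an SE of 0.41 (adjusted p = 0.637), and without KL-/- replicate 2 it was -0.14. Its fold interval, ending at 2.33, includes a 2-fold rise.

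Myf6 (chr10:107492860-107494729, minus strand) encodes MRF4, the bHLH factor that is most abundant in adult fibres, and lies 6725 bases from Myf5 on the same strand. It was measured at 90.8, 78.8, 71.6 and 68.1 CPM in WT and at 76.5, 79.1, 63.7 and 76.4 CPM in KL-/-. The KL-/- values lay within or just below the WT range, with KL-/- replicate 3, the library with another batch date, at the bottom. MRF4 transcripts had a log2 fold change of -0.065 with an SE of 0.10 (adjusted p = 0.690). The 95% interval of the fold, 0.816 to 1.12, was the narrowest among the bHLH factors.

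**Figure D1:**
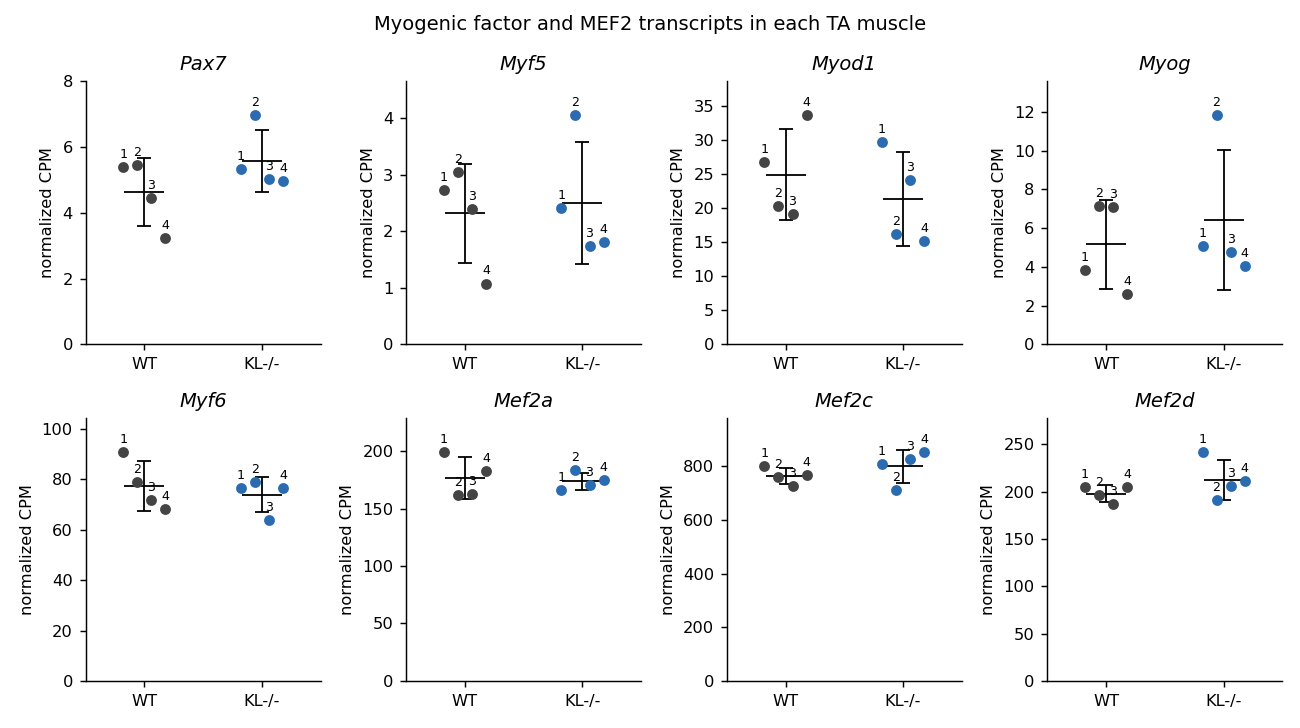
Normalized level (CPM) of each of the 8 genes in each library, by genotype, with the replicate number beside each point and lines for the mean and SD (n = 4). The genotypes overlap in every panel, and KL-/- replicate 2 is the highest library for Pax7, Myf5 and Myog.

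The MEF2 genes were measured more precisely. Mef2c (chr13:83504034-83667079, plus strand), a main MEF2 gene of muscle fibres, was at 803, 759, 727 and 768 CPM in WT and at 810, 714, 829 and 854 CPM in KL-/-. The 3 KL-/- libraries other than replicate 2 lay above all WT libraries, and replicate 2 lay below them. Mef2c had a log2 fold change of 0.068 with an SE of 0.073 (adjusted p = 0.550).

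Mef2d (chr3:88142395-88169167, plus strand), a broadly expressed MEF2 gene, was at 205, 196, 187 and 205 CPM in WT and at 242, 192, 206 and 211 CPM in KL-/-. KL-/- replicate 1 was highest, and KL-/- replicate 2, the lowest KL-/- library, fell within the WT range. Mef2d had a log2 fold change of 0.10 with an SE of 0.076 (adjusted p = 0.376).

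Mef2a (chr7:67231163-67372858, minus strand), a MEF2 gene of muscle and heart, was at 199, 162, 162 and 183 CPM in WT and at 166, 183, 170 and 175 CPM in KL-/-. All KL-/- libraries lay inside the WT range. The log2 fold change was -0.023 with an SE of 0.077 (adjusted p = 0.859). Of its 5843 counted bases, 302 overlap exons of Lysmd4 on the other strand, and the use of strand in counting was not stated.

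**Figure D2:**
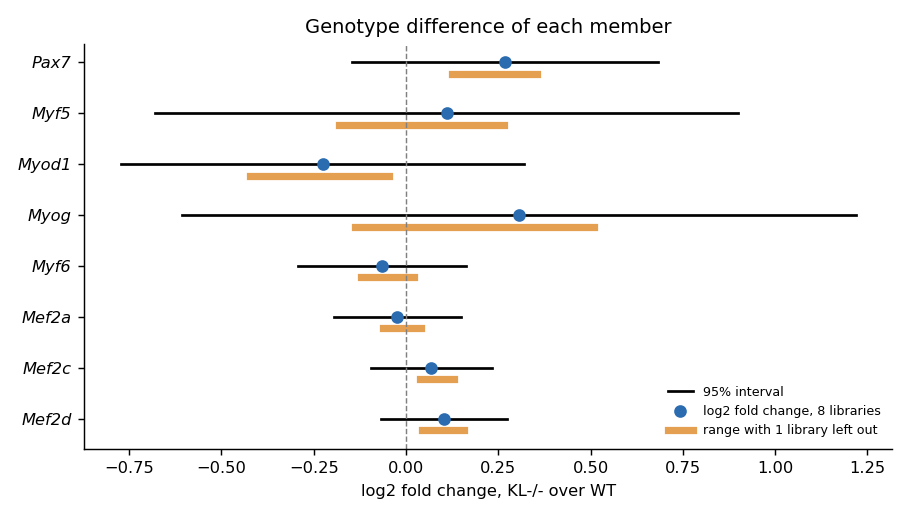
Log2 fold change (KL-/- over WT) of each gene, with its 95% interval (black) and the range when 1 library is left out (orange). All intervals cross 0, and the widest belong to Myog, Myf5 and Myod1.

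Between genes, levels were compared as CPM per kilobase of counted length. From the highest the order in WT was Mef2c at 116 ± 4.81, Mef2d at 80.6 ± 3.56, Myf6 at 62.0 ± 8.03, Mef2a at 30.2 ± 3.08, Myod1 at 13.5 ± 3.62, Myog at 3.49 ± 1.56, Myf5 at 1.11 ± 0.417 and Pax7 at 1.08 ± 0.244 CPM per kilobase. In KL-/- the 6 highest kept their order, and Pax7, at 1.30 ± 0.220, lay above Myf5, at 1.20 ± 0.517. The step between neighbours had the same sign in 8 of 8 libraries except for Myf5 and Pax7, where it held in 4 of 8. The ranges of Myog and Myf5, and of Myf5 and Pax7, overlapped across the libraries.

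**Figure D3:**
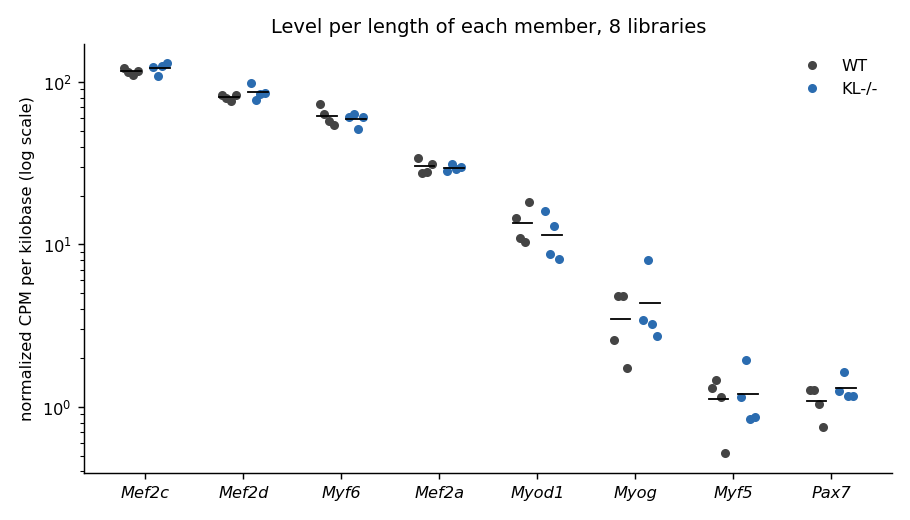
Normalized CPM per kilobase on a log axis for each gene in 8 libraries, with lines for genotype means. The genes cover about the same span in both genotypes, from Mef2c at the top to Myf5 and Pax7 at the bottom.

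Within each family the share of every gene overlapped between the genotypes. MRF4 (Myf6) made up 77.3% ± 3.12 of the summed bHLH level per kilobase in WT and 77.7% ± 4.28 in KL-/-. MyoD made up 16.9% ± 4.96 and 15.2% ± 4.88, and the rest was myogenin and Myf5. Among the MEF2 genes Mef2c made up 51.3% ± 0.591 and 51.2% ± 1.90, Mef2d 35.5% ± 0.505 and 36.3% ± 2.08, and Mef2a 13.3% ± 0.770 and 12.5% ± 1.30. The Myog to Myod1 ratio was 0.179, 0.439, 0.465 and 0.0961 in WT and 0.212, 0.911, 0.247 and 0.334 in KL-/-, again highest in KL-/- replicate 2.

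WT replicate 4 and KL-/- replicate 2 held the extremes of Pax7, Myf5 or Myog, with Myod1 on the other side, and KL-/- replicate 2 also stood apart over the whole table. In WT replicate 4, Pax7 was 0.48 below its genotype mean on the log2 scale, Myf5 0.96 and Myog 0.86 below, and Myod1 was 0.47 above. In KL-/- replicate 2 the same genes were 0.33, 0.76 and 1.01 above, and Myod1 was 0.33 below. Pearson's r for Pax7 and Myf5 was 0.90 over 8 libraries (exact permutation p = 0.005, adjusted 0.118 over 28 pairs) and Spearman's rho was 0.905. Without WT replicate 4 and KL-/- replicate 2 r was 0.42, and it was 0.78 without them when levels were scaled by library totals alone. How far the relation rests on those 2 libraries therefore depends on the scaling. Within genotype, with both libraries included, r was 0.97 (adjusted 0.097 by exact permutation). Permuting 4 libraries within each genotype allows few arrangements, so this adjusted p could hardly pass whatever the relation. No pair of the 28 passed adjustment.

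**Figure D4:**
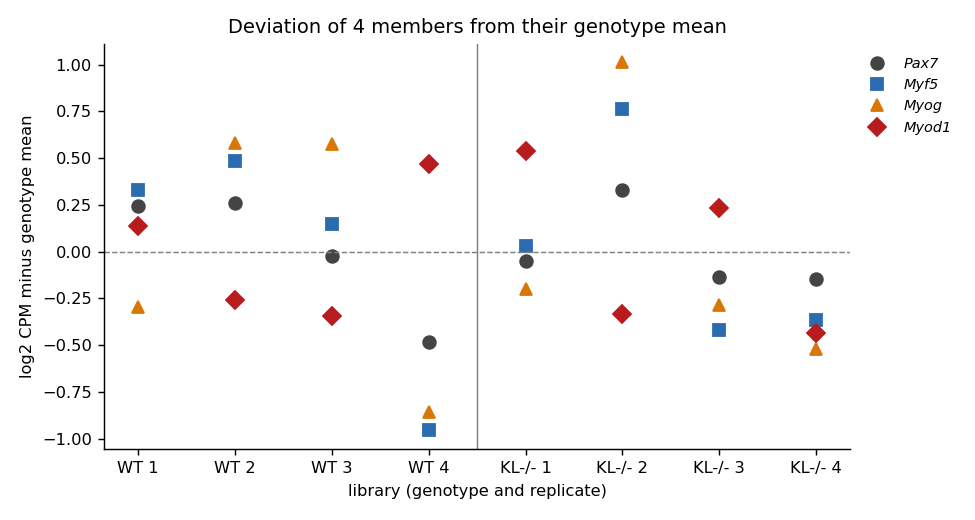
Log2 CPM minus the genotype mean for Pax7, Myf5, Myog and Myod1 in each library. WT replicate 4 and KL-/- replicate 2 stand apart in opposite directions, with Myod1 on the other side of the remaining genes in both.

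Around the factors, lists of partners, regulators and targets were examined. They were chosen with earlier results of these data known, so their counts are not independent of these data. Of the 3 E proteins that pair with the bHLH factors (Tcf3, Tcf4 and Tcf12) none passed the test, and all 3 fold changes were negative. Tcf4 came closest, at a log2 fold change of -0.27 (adjusted p = 0.057). All its KL-/- libraries lay below all WT libraries, as for 9.47% of all genes. Among the 17 measured bHLH inhibitors, none passed, and 12 of the 17 fold changes were negative. Id1, an inhibitor of E proteins, had the largest positive value, 1.26, but its adjusted p was 0.075.

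Of the measured regulators of MEF2, 5 rose and 2 fell among 20 where 14.0% of all genes were called. Sik1, a kinase of class IIa deacetylases, rose by 1.65 on the log2 scale (9.59 to 30.1 CPM, adjusted p = 0.026). Kat2b, an acetyltransferase that acts with the myogenic factors, rose by 0.53, Ppp3ca, a calcineurin catalytic subunit, by 0.41, Hdac5, a class IIa deacetylase, by 0.32 and Camk2b, a calcium-dependent kinase, by 0.28. Mapk14, a p38 kinase, fell by 0.38 and Camk2d fell by 0.41. The median of the list was 0.026. Sik1 was highest in KL-/- replicate 3 (60.0 CPM), and its log2 fold change without that library was 1.08. Kat2b and Ppp3ca passed in all 17 alternatives, whereas the other 5 often lost the call, including on removal of single libraries of either genotype. Of the 8 fits that left out 1 library, Camk2d lost it in 7, Hdac5 and Camk2b in 6, Sik1 in 5 and Mapk14 in 4. The fit without a low-count filter, counted among the 17, repeats the main fit.

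Among targets, 5 of the 17 measured fusion and differentiation genes rose and none fell, where 7.35% of all genes rose. They were Chrna1 (0.87) and Chrne (0.73), subunits of the acetylcholine receptor, the embryonic myosin Myh3 (1.49), the troponin Tnnt2 (1.19) and the cell cycle inhibitor Cdkn1a (0.84). The median of the list was 0.15. The study had already named Chrna1, Chrne, Myh3 and Tnnt2 as elevated in these muscles, so this count is not independent support. In the list built on myogenin in denervated muscle, 4 of 15 rose, Gadd45a (0.79) beside Chrna1, Myh3 and Sik1, and the ubiquitin ligases Trim63 and Fbxo32 did not pass. Chrna1, Chrne and Tnnt2 passed in all 17 alternatives, while Myh3, Cdkn1a and Gadd45a each lost the call without WT replicate 2, among others. Of the 8 fits that left out 1 library, Cdkn1a lost it in 7, Myh3 in 5 and Gadd45a in 4. Of the 15 MEF2 targets only Myom1, a sarcomere protein, passed (0.55, adjusted p = 0.014), a count near the share of all genes that rose. The median of that list was 0.17, with 8 fold changes positive and 7 negative. Its summed level was 32622 to 34191 CPM in WT and 36122 to 38010 CPM in KL-/-, a sum weighted to its most abundant genes.

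Satellite cell markers, a list that includes Pax7 and Myf5, had 1 called gene of 18, a share near that of all genes that rose (7.35%). It was Peg3 (0.87), a call lost without WT replicates 1 or 2 or KL-/- replicate 4. The summed level ran from 388 to 546 CPM in WT and from 476 to 547 CPM in KL-/-. The sum rests largely on Itga7, Cd34 and Peg3, with WT means of 127, 85.8 and 55.5 CPM against 4.63 CPM for Pax7. Their log2 fold changes differed in sign, with 0.26 for Itga7, -0.55 for Cd34 and 0.87 for Peg3. The sum is therefore not a reading of satellite cell level. The cell-type lists too were chosen with earlier results of these data known. Counts for other cell types stand against 7.35% of all genes higher and 6.67% lower. Of these, fibroblast markers had 4 of 10 lower, with sums of 1311 to 3601 CPM in WT and 681 to 1614 CPM in KL-/-, macrophage markers had 3 of 10 lower and Schwann cell markers 4 of 8 higher. Endothelial markers had 1 of 10 lower (Kdr), tenocyte markers 3 of 7 lower and pericyte markers 1 of 8 higher, and the single calls are near the share of all genes. Kdr, the Schwann cell gene Sox10 and the fibre gene Actn3 kept their call with any 1 library left out. All calls in the fibroblast, macrophage, tenocyte and pericyte lists were lost in 3 to 7 of the 8 fits that left out 1 library. Muscle fibre markers, with 1 of 10 called, summed to 159225 to 181743 CPM in WT and 189495 to 235105 CPM in KL-/-. Correlations of each of the 8 genes with the summed level of each cell-type list (satellite cells included and the 8 genes left out of the sums), a comparison chosen after seeing the data, gave 64 pairs, none of which passed adjustment. The pair with the lowest p was Myod1 with the sum of the satellite cell list (r = -0.84, exact permutation p = 0.008, adjusted 0.348, rho = -0.90). Its r was -0.67 without WT replicate 4 and KL-/- replicate 4. That sum rests largely on Itga7, Cd34 and Peg3, so the pair does not set Myod1 against satellite cell level. Pax7 and muscle fibre markers had r = 0.82 (exact permutation p = 0.024, adjusted 0.348) but rho = 0.31, and r was -0.14 without WT replicate 4 and KL-/- replicate 2.

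**Figure D5:**
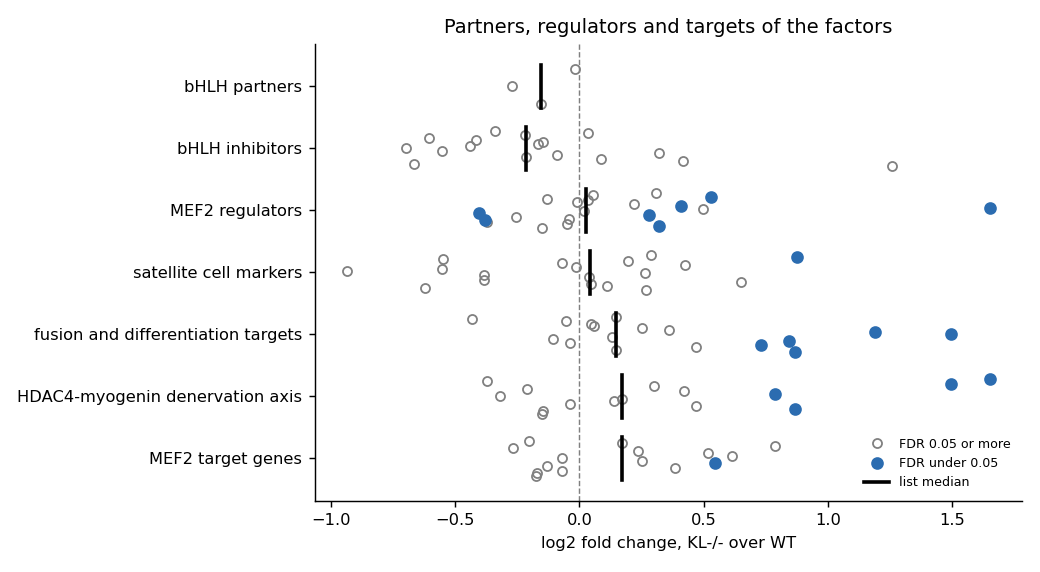
Log2 fold change (KL-/- over WT) of the measured genes of each list, filled where the FDR was under 0.05, with a bar at the list median. Called genes lie mostly to the right of 0, and the E proteins and bHLH inhibitors have none.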

How the data were processed

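Gene counts were deposited by the authors as whole numbers without normalization, made, per the labels, with STAR, featureCounts and mm10. The strand setting and annotation version are not given in the sources used here, and the study's methods and the labels differ on whether mRNA or total RNA was sequenced. Each of 8 libraries is 1 mouse, so p-values measure the spread between these mice.

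Genotypes were compared with edgeR 4.0.16 under R 4.3.3 (TMM factors, a genotype model, quasi-likelihood test of edgeR 4, Benjamini-Hochberg adjustment over all 12551 genes). The edgeR 3 form of the test was also run. Log2 CPM used a prior count of 2, and correlations used exact permutation tests computed directly in Python 3.11.15. The floor of 3 counts corresponds to 0.102 to 0.144 CPM. Only the edgeR quasi-likelihood test was checked on simulated counts, and the permutation and Dixon's tests were not. Alternatives were DESeq2 1.42.0, other edgeR and limma tests, other scalings, filters, the replicate block and each library left out. The default filter removed no gene, so the fit without it repeats the main fit.

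The 8 genes and all 14 lists were chosen with earlier results of these data known. Genes named from lists are those past the FDR threshold, at most 8 per list, and Id1, Tcf4, Trim63 and Fbxo32 were named after their values were seen. Promoters came from RefSeq on GRCm38.p6. For the MEF2 motif 3 forms were searched, a strict consensus, then CTANNNNTA after the strict form gave no match in Myog, then the exact Myog letters. The choice followed the sequences, so no motif share is support for anything. A list gene is not reported here by name, and list counts still include it.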

Additional observations from a re-analysis of the deposited data

Results flagged for a closer look

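3 of 32 groups of 4 libraries had a sample far from the others by Dixon's test, and chance gives about 1 in 20. Myog was 11.8 CPM in KL-/- replicate 2, Myf6 was 63.7 CPM in KL-/- replicate 3 (the library with another batch date), and the summed muscle fibre markers were 159225 CPM in WT replicate 4.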

How the results depend on the processing

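No member passed the threshold in any of the 17 alternatives, and 127 of the 136 values kept their direction. Some alternatives could hardly differ from the main fit. The default filter removed none of the 12551 genes, so the fit without a filter repeats the main fit. The edgeR 3 form and edgeR's likelihood ratio test use the same counts and scaling, so they can hardly change a direction. The lowest adjusted p was 0.123, for Mef2d without KL-/- replicate 2, and that library's removal gave 2 members an unadjusted p under 0.05, Mef2c and Mef2d. Scaling by library totals turned Myf5 to -0.0067, Mef2c to -0.049 and Mef2d to -0.014, and moved the median of all genes from -0.016 to -0.13 and the share of higher calls from 52.4% to 18.8%. With 1 library left out, Pax7 ran from 0.12 to 0.35, Myod1 from -0.42 to -0.046, Mef2c from 0.037 to 0.13, Mef2d from 0.044 to 0.16, Myog from -0.14 to 0.51, Myf5 from -0.18 to 0.27, Myf6 from -0.12 to 0.021 and Mef2a from -0.063 to 0.040. Called list genes numbered 32, with 52 in DESeq2 and 12 to 46 with 1 library left out, and called genes overall 1759, with 762 to 2755. With library totals 2 pairs of members passed adjustment, Pax7 with Myf5 and Myog with Mef2c, by Pearson's r only (adjusted p by exact permutation 0.195 for Spearman's rho in both, and 0.097 and 0.182 within genotype). With the replicate block there were 671 called genes, 16 called list genes and no called member, but same-numbered mice did not vary together (r of -0.15, 0.18, -0.37 and 0.017), so the numbers do not pair the mice. The cause of these shifts was not tested.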

Other observations

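For each member the 2 genes whose level followed it most closely over 8 libraries were listed. Their Pearson's r ran from 0.94 (Cr1l with Myog) to 0.98 (Stard7 with Mef2c). Picked out from that list, and not set apart by its r, Ppargc1a, the coactivator of mitochondrial genes, followed Mef2d (Pearson's r = 0.98, Spearman's rho = 0.976). This is a description of the closest of many candidates, with no test, and KL-/- replicate 1 was highest for both.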
